A study of Mus musculus with 9 samples.

Results

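The motile cilia genes described here were all genes of the array whose platform symbol begins with Cfap, Dnah, Dnaaf or Rsph followed by a number, or is Dnali1. There were 55 of them among 19505 named genes: 30 Cfap, 10 Dnah, 7 Dnaaf and 7 Rsph genes and Dnali1, each with 1 probe set. Brain RNA of male mice was hybridized to Clariom S arrays for mouse, 3 per group, in 3 groups, and the design text counts 3 mice in each. VE mice carried the ob/ob genotype (C57BL/6JHamSlc-ob/ob, which lacks leptin) and received VE, a Vigna umbellata extract, by gavage at 100 mg/kg for 42 days. The ob/ob controls had the same genotype and received vehicle, and the wild-type controls (C57BL/6JHamSlc-+/+) also received vehicle. All were 6 weeks old before 1 week of acclimatization and ate standard chow. The leptin deficiency was therefore shared by the VE and the ob/ob vehicle mice, and no VE-treated wild-type group was analysed here. The series' design text speaks of white adipose tissue, whereas the labels of the arrays give brain, and neuron markers averaged 12.2 to 13.8 log2 units on the 9 arrays.

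Motile cilia are built on an axoneme, a ring of microtubule doublets around a central pair. Axonemal dynein arms slide the doublets against each other, radial spokes pass signals from the central pair to the arms, and assembly factors fold the dyneins in the cytoplasm before they enter the cilium. In the brain, motile cilia beat on ependymal cells, which line the ventricles and move cerebrospinal fluid, and tufts of cilia are also found on the choroid plexus epithelium, which secretes that fluid. RFX transcription factors, which bind the X-box, and the forkhead factor FOXJ1 control many of these genes. Many axonemal genes are also used by the sperm flagellum, and some are active in cells without motile cilia.

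The promoters of 4 members are shown: Cfap126, which was the member called in ob/ob mice, Rsph9 and Cfap20, which came next by p-value, and Cfap298, whose promoter held the most motif matches of these 4. The sequences are the 250 bases before the annotated start from RefSeq (GRCm38.p6), read 5′ to 3′ on the gene's strand. Capitals mark matches to an RFX half-site, a relaxed X-box or a forkhead motif.
Cfap126, chr1:171113736-171113985, plus strand, first of 3 windows: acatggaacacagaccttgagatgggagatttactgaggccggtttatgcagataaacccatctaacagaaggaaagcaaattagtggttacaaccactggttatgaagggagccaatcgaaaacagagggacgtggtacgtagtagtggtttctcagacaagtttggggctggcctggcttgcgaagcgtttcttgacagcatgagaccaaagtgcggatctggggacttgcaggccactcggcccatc
Rsph9, chr17:46144201-46144450, minus strand: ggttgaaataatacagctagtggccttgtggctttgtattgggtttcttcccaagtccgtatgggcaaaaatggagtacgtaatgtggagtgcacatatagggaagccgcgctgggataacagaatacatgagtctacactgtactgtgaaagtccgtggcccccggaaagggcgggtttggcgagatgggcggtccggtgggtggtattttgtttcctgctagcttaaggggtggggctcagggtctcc
Cfap20, chr8:95434870-95435119, minus strand: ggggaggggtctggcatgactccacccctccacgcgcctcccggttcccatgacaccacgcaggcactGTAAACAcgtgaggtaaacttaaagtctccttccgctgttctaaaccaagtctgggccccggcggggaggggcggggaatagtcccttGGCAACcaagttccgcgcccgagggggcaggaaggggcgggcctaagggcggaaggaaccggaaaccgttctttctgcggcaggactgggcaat
Cfap298, chr16:90934850-90935099, minus strand: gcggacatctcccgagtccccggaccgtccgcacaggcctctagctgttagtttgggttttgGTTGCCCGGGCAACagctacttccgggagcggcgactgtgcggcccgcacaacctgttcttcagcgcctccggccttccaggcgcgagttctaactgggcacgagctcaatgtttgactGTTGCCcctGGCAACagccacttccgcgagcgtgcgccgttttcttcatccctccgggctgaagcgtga

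Promoter windows of 300 bases, which also hold the 50 bases after the start, were at hand for 46 of the 55 members (50 windows). Rsph4a, Dnaaf1, Cfap65, Cfap53, Cfap299, Cfap73, Cfap97, Rsph1 and Cfap157 had no entry. The RFX half-site was searched as GTTGCC, the relaxed X-box as GTNNCC and GNAAC with 3 bases between them, and the forkhead motif as GTAAACA, each on both strands and with overlapping matches counted for each motif. The half-site stood in 38% of the members' windows (19 of 50), against 12.5% of all 32851 windows. The X-box stood in 22% (11 of 50), against 2.17% of all windows. The forkhead motif stood in 6% (3 of 50), against 3.65% of all windows. Both RFX motifs were thus more frequent in the members' windows than in the table as a whole. In Cfap298, an X-box match contained a pair of half-sites in opposite orientation, and a second such pair lay closer to the start. The windows of Cfap126 and Rsph9 held none of the 3 motifs, which says only that these letters were not found there. The 18 members with a half-site had a median ob/ob minus wild-type change of -0.13 log2 units. The 24 members with neither RFX motif, Cfap126 among them, had a median of 0.07. Members with an X-box match but no half-site are in neither set. The sets were not matched for signal level, and a link between these motifs and the changes was not tested.

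Most of the 55 genes gave dim signals in whole brain. Mean levels over the 9 arrays ran from 3.59 log2 units for Dnaaf6b to 10.17 for Cfap20, with a median of 6.15, and the median of all 22206 probe sets was 7.13. Olfactory receptor genes, most of which are little used outside the nose, served as a scale for dim probe sets: 95% of their 1091 probe sets lay at or below 7.61. Of the members, 45 lay at or below that value and 10 above it, against 43.6% of all probe sets above it. The 10 were Cfap20, Cfap298, Cfap44, Rsph3a, Cfap43, Cfap36, Cfap300, Cfap100, Rsph9 and Cfap97. A dim signal bounds what can be seen and does not show that a gene is silent, since probe sets differ in brightness for the same amount of RNA. Within the families, the brightest and dimmest probe sets were Cfap20 and Cfap97d2 (4.09), Dnah7a (7.24) and Dnah8 (4.45), Dnaaf2 (6.33) and Dnaaf6b, and Rsph3a (9.12) and Rsph14 (4.06), and Dnali1 averaged 6.32. Rsph3a and Rsph3b, and Dnaaf6 and Dnaaf6b, are pairs of related genes whose probes may share signal, which was not tested.

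**Figure D1:**
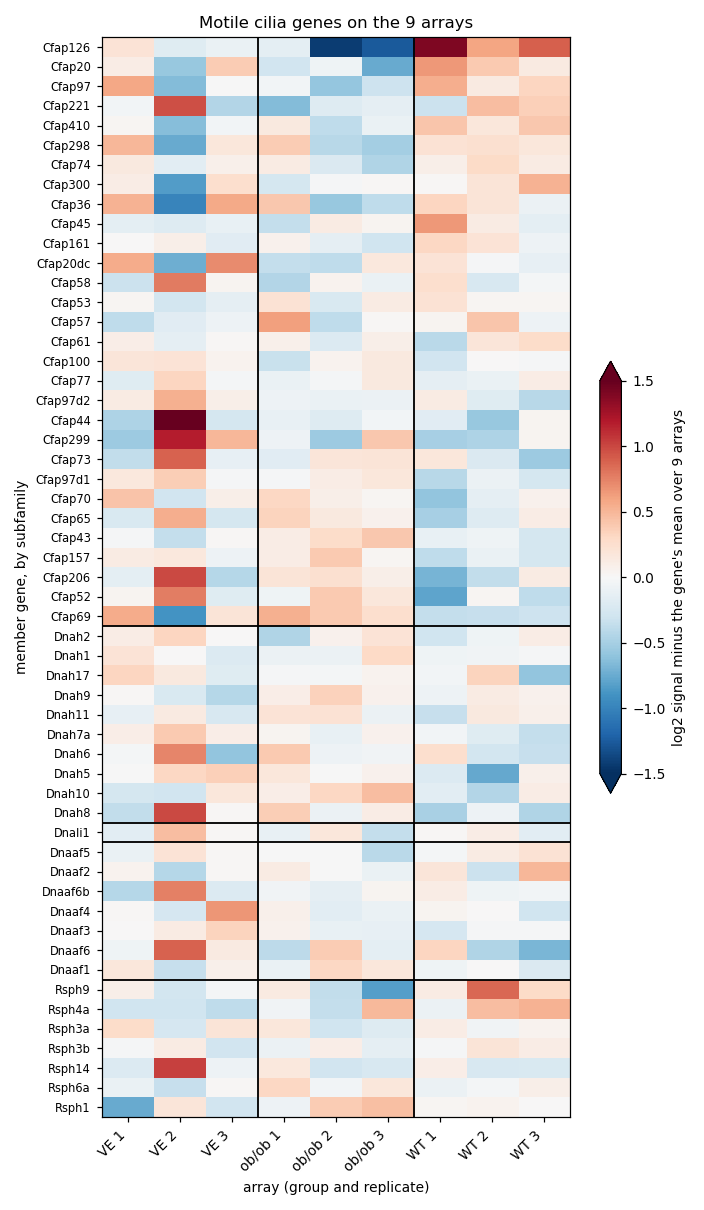
Heat map of the 55 motile cilia genes (rows, by family) on the 9 arrays (columns), VE left, ob/ob vehicle in the middle and wild type right; colour is the log2 signal minus the gene's mean over the arrays, red above and blue below. VE array 2 and the row of Cfap126 hold many of the strongest colours, while the arrays' mean levels over the genes lay within 6.28 to 6.38 in VE, 6.21 to 6.30 in ob/ob vehicle and 6.26 to 6.28 in wild type.

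VE array 2 differed from the rest. Over all probe sets it correlated at 0.962 to 0.970 with the others, and those 8 correlated with each other at 0.979 to 0.993. It held the highest or the lowest value of the 9 arrays for 58.2% of the members (32 of 55), against 52.3% of all probe sets. For 14 members it lay more than 1 log2 unit from the mean of VE arrays 1 and 3, above it for 9 and below it for 5, which is 25.5% of the members and 16% of all probe sets. Cfap44, which is needed for the sperm flagellum in humans and mice, had 10.89 on that array and 8.57 to 9.18 on the other 8. Cfap36, a ciliary protein that binds the small GTPase ARL3, went the other way, with 8.06 there and 9.57 and 9.61 on VE arrays 1 and 3. For the VE comparisons below, some of the named values are given without this array too. Between VE and ob/ob vehicle, Cfap44 was at 0.45 with all arrays and at -0.25 without VE array 2. Cfap36 was at 0.21 and 0.72, and Cfap20dc at 0.37 and 0.825, in the same order.

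In ob/ob mice given vehicle, Cfap126 fell by 1.91 log2 units relative to wild type, a 3.75-fold lower signal, and it was the only member called. Cfap126 (Flattop) sits in the axoneme and takes part in placing basal bodies in multiciliated cells. The ob/ob vehicle arrays gave 6.60, 5.32 and 5.49, and the wild-type arrays 8.15, 7.34 and 7.64. Every ob/ob value lay below every wild-type value. The group means were 5.80 ± 0.695 in ob/ob vehicle and 7.71 ± 0.410 in wild type (SD, n = 3 each), and the fitted change had an SE of 0.319 and a 95% interval of -2.60 to -1.22 (limma adjusted p = 0.0284). In whole tissue, fewer ciliated cells and less RNA per cell cannot be told apart. The ob/ob level lay within the range of most olfactory receptor probe sets. The call was made with all 9 arrays and depended on them: limma's adjusted p was 0.14 without ob/ob array 2, 0.177 without ob/ob array 3, 0.12 without wild-type array 1, 0.0909 without wild-type array 2 and 0.12 without wild-type array 3, with changes of -2.09 to -1.67. Without VE array 2 it was 0.00239.

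Across the family, 1 of 55 members (1.82%) was called at adjusted p under 0.05 by limma, against 1.27% of all probe sets (281 of 22206), and it was lower, as were 0.73% of all. Under the authors' rule of unadjusted p under 0.05 and a fold over 1.1, the count was 5 of 55 (9.09%), against 20.1% of all probe sets. The 4 lower ones were Cfap126, Rsph9, Cfap20 and Cfap97 (10.2% of all probe sets were lower by this rule), and Cfap69 was higher (9.88% of all were higher). Ob/ob and wild-type values did not overlap for 8 members (14.5%), against 33.3% of all probe sets, with 4 higher (15.8% of all) and 4 lower (17.5% of all). Over all 55, the shares by these last rules were below the background. By the authors' rule, the 10 members above the olfactory receptor value of 7.61 had 3 (30%, all lower), against 25.7% of all probe sets above it. The 45 members at or below it had 2 (4.44%), against 15.7%. The median change of the 55 members was 0.04 log2 units, with 31 above 0 and 24 below, and the median of all probe sets was 0.02. The changes of 49 members lay within 0.5 log2 units of 0. The sign of the members' median turned under other scalings: it was -0.12 after quantile normalization and after cyclic loess and -0.03 after centring the arrays. When VE array 2 was left out, 4 members were called (7.27%), against 13.4% of all probe sets. Cfap126, Cfap20 and Rsph9 were lower (7.18% of all) and Cfap69 higher (6.22% of all).

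**Figure D2:**
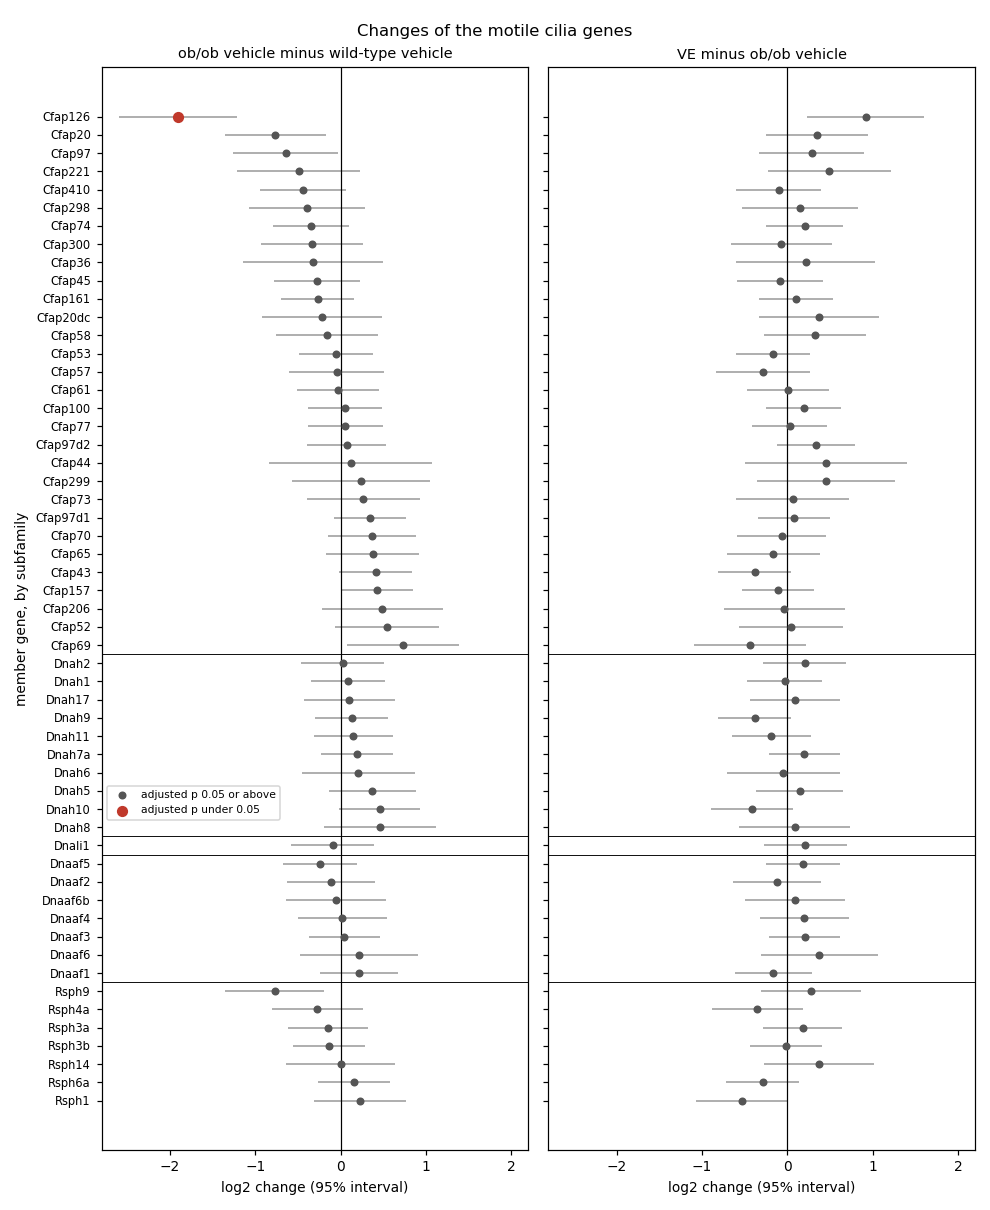
Change of each of the 55 genes (log2 units) in ob/ob vehicle minus wild type, in the left panel, and VE minus ob/ob vehicle, in the right, with 95% intervals from limma and the called gene in red. Most intervals cross 0, and Cfap126 lies farthest from 0 in ob/ob vehicle minus wild type, at -1.91.

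The 3 other members on the lower side by the authors' rule were a spoke gene and a pair of brighter Cfap genes. Rsph9, a radial spoke head protein whose loss causes primary ciliary dyskinesia in humans, had 8.04, 7.54 and 7.08 in ob/ob vehicle, against 8.03, 8.76 and 8.19 in wild type. Ob/ob array 1 lay level with the lowest wild-type array, and the groups overlapped (-0.77, SE 0.270, limma adjusted p = 0.143). Cfap20, a protein of the junction between the doublet's tubules, had 9.88, 10.10 and 9.41 in ob/ob vehicle, against 10.82, 10.56 and 10.30 in wild type. The groups did not overlap, but the change missed the threshold (-0.76, SE 0.274, limma adjusted p = 0.151). Cfap97 had 7.64, 7.11 and 7.38 in ob/ob vehicle, against 8.23, 7.82 and 8.01 in wild type. Here too the groups did not overlap and the change was not called (-0.64, SE 0.286, limma adjusted p = 0.231).

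On the higher side, Cfap69, which mouse sperm flagella and olfactory neuron cilia need, had 7.96, 7.82 and 7.68 in ob/ob vehicle, against 7.07, 7.09 and 7.12 in wild type. The groups were far apart relative to their own spread, yet the pooled spread, which includes a VE value of 6.53, gave limma adjusted p = 0.206 (0.73, SE 0.304). It was 0.0164 without VE array 2. Cfap43, a partner of Cfap44 in the sperm axoneme, had 9.22, 9.39 and 9.51 in ob/ob vehicle, against 9.0, 9.04 and 8.85 in wild type. These values did not overlap either (0.41, SE 0.197, limma adjusted p = 0.263). Cfap157 (0.42) and Cfap97d1 (0.35) also had every ob/ob value above every wild-type value without being called, while Cfap410 (-0.44) had every ob/ob value below. Among the proteins of the doublet wall and lumen, the changes were 0.54 for Cfap52, -0.27 for Cfap45, -0.27 for Cfap161, 0.05 for Cfap77 and -0.06 for Cfap53. Cfap221 was at -0.49, Cfap74 at -0.35 and Cfap70 at 0.37, and the central apparatus was not read as a set. Cfap65, needed for the sperm flagellum, was at 0.38, Cfap44 at 0.12 and Cfap36 at -0.32.

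**Figure D3:**
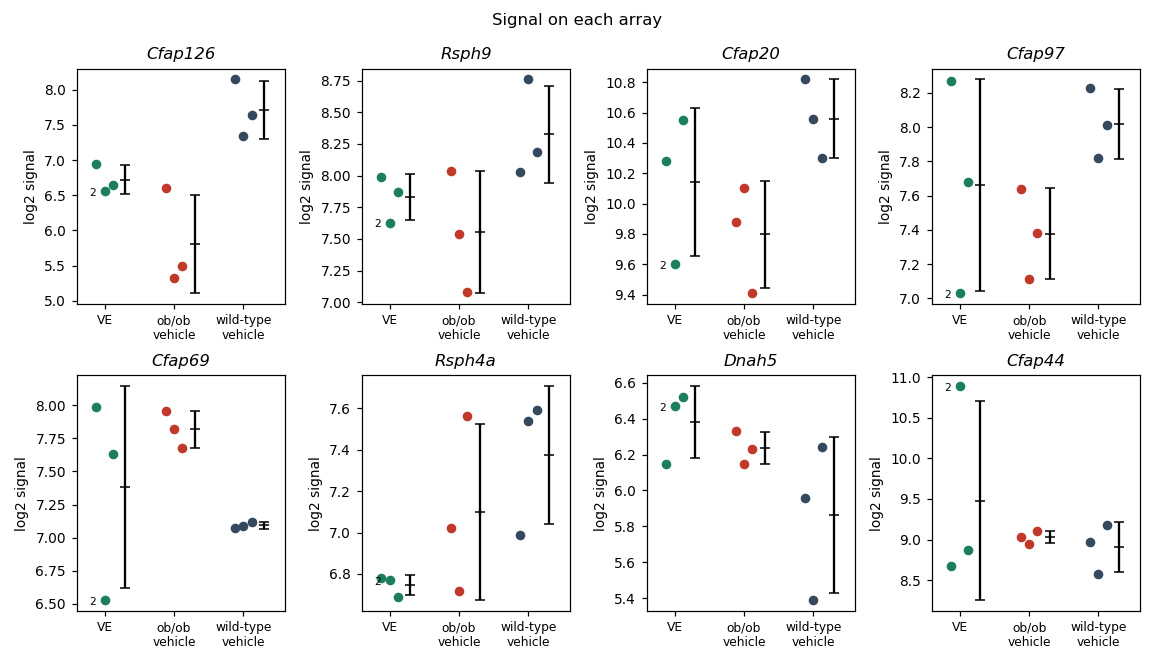
Log2 signal of 8 members on each array, VE left, ob/ob vehicle in the middle and wild type right, with the mean ± SD of each group beside its points and VE array 2 marked 2. Cfap126 reads 6.56 to 6.95 in VE, 5.32 to 6.60 in ob/ob vehicle and 7.34 to 8.15 in wild type.

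None of the 10 axonemal dynein heavy chains, the motors of the arms, was called in ob/ob mice by limma. At unadjusted p under 0.05 the count was 0, against 20.1% of all probe sets and 15.7% of those at or below the olfactory receptor limit. All 10 fitted changes were above 0, from 0.02 for Dnah2 to 0.46 for Dnah8, with a median of 0.17. Probe sets at or below the olfactory receptor limit, where every heavy chain lies, had a median of 0.16, and 8723 of those 12517 were above 0. After quantile normalization 6 of the 10 were above 0 and their median was 0.04. Dnah5, an outer arm chain whose loss causes hydrocephalus in mice, had 6.33, 6.15 and 6.23 in ob/ob vehicle, against 5.96, 5.39 and 6.24 in wild type. The values overlapped (0.37, SE 0.235, limma adjusted p = 0.392). Dnah9 and Dnah11, also outer arm chains, were at 0.13 and 0.15. The inner arm chain Dnah10 was at 0.46 (limma adjusted p = 0.267), and Dnali1, a light intermediate chain of the inner arms, at -0.09.

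The assembly factors lay close to 0. The 7 Dnaaf genes ran from -0.24 (Dnaaf5) to 0.22 (Dnaaf1), with a median of 0.02. None was called by limma or reached unadjusted p under 0.05. That level was reached by 20.1% of all probe sets and by 15.7% of those at or below the olfactory receptor limit, where these genes lie. Dnaaf2, whose loss leaves cilia immotile in humans, had 6.45, 6.32 and 6.23 in ob/ob vehicle, against 6.51, 6.01 and 6.83 in wild type, and the ob/ob values lay inside the wild-type range. Cfap298 and Cfap300, which also serve dynein assembly, were at -0.39 and -0.33. Of the other spoke genes, the head proteins Rsph4a and Rsph1 were at -0.27 and 0.22, the stalk proteins Rsph3a and Rsph3b at -0.15 and -0.14, and Rsph6a, which is found in sperm, at 0.16. Over the 7 Rsph genes the median was -0.14. The standard errors of the members' changes in the 3 comparisons ran from 0.192 to 0.442 log2 units, and their precision was limited by the 3 arrays a group.

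In VE mice compared with ob/ob vehicle, 0 of 55 members were called by limma, against 0.486% of all probe sets, and 1 (Cfap126) reached unadjusted p under 0.05. This comparison uses the same ob/ob arrays as the one above. Cfap126 had 6.95, 6.56 and 6.65 in VE, against 6.60, 5.32 and 5.49 in ob/ob vehicle. VE array 2 lay below ob/ob array 1, so the groups overlapped, and the difference was 0.92 (SE 0.319, 95% interval 0.23 to 1.61, unadjusted p = 0.0131, limma adjusted p = 0.225). Under the authors' rule it was the 1 member that passed, against 13.3% of all probe sets (3.21% higher). The VE and ob/ob values did not overlap for 4 members (7.27%), against 16.5% of all probe sets. Cfap97d2 and Dnah7a were higher (4.62% of all) and Cfap43 and Dnah9 lower (11.9% of all). The median difference of the members was 0.08, and that of all probe sets -0.07. Without VE array 2, 0 members were called by limma, against 1.81% of all probe sets.

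The members with the smallest p below 0 were Rsph1, Cfap43, Dnah9 and Dnah10, all uncalled. Rsph1, a spoke head protein, had 4.92, 5.86 and 5.39 in VE, against 5.60, 6.05 and 6.13 in ob/ob vehicle. VE array 2 lay inside the ob/ob range (-0.54, SE 0.249, limma adjusted p = 0.376). Cfap43 had 9.09, 8.75 and 9.13 in VE, against 9.22, 9.39 and 9.51 in ob/ob vehicle, a difference of -0.38 (SE 0.197, limma adjusted p = 0.432). Dnah9 had 5.70, 5.45 and 5.26 in VE, against 5.78, 6.03 and 5.75 in ob/ob vehicle, also -0.38 (SE 0.199, limma adjusted p = 0.438). In both genes the VE arrays were the lower ones, by less than 0.1 between the nearest arrays of each gene. Dnah10 was at -0.42, Cfap69 at -0.44, Rsph4a at -0.35, Rsph6a at -0.29 and Cfap57 at -0.29. Above 0 after Cfap126 came Cfap97d2 (0.33), Cfap221 (0.49), Cfap20 (0.35), Rsph14 (0.37), Cfap299 (0.45), Cfap58 (0.32) and Dnaaf6 (0.37). Of these, Cfap97d2, Cfap221, Rsph14, Cfap299, Cfap58 and Dnaaf6 had their highest value of all 9 arrays on VE array 2. Without that array the differences were 0.19 for Cfap97d2, 0.09 for Cfap221, -0.022 for Rsph14, 0.05 for Cfap299, 0.017 for Cfap58 and 0.09 for Dnaaf6, each of them closer to 0. Cfap20 went to 0.62 without it, Cfap69 to -0.01 and Rsph6a to -0.19.

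In VE mice compared with wild type, 0 of 55 members were called by limma, against 0.0991% of all probe sets, and 4 reached unadjusted p under 0.05 and passed the authors' rule (7.27%), against 12.2% of all probe sets. Cfap126, Rsph4a and Cfap410 were on the lower side (9.21% of all) and Dnah5 on the higher (2.98% of all). Cfap126 had 6.95, 6.56 and 6.65 in VE, against 8.15, 7.34 and 7.64 in wild type, without overlap (-0.99, SE 0.319, 95% interval -1.68 to -0.30, limma adjusted p = 0.245). Its VE mean of 6.72 lay between the ob/ob vehicle mean of 5.80 and the wild-type mean of 7.71. Neither VE comparison called Cfap126, and the gene was singled out by the low values of those same ob/ob arrays. Rsph4a, a spoke head protein, had 6.78, 6.77 and 6.69 in VE, against 6.99, 7.54 and 7.59 in wild type, also without overlap (-0.63, SE 0.247, limma adjusted p = 0.339). Cfap410, linked to retinal and skeletal disease in humans, had 7.09, 6.43 and 7.03 in VE, against 7.48, 7.23 and 7.47 in wild type (-0.54, SE 0.232, limma adjusted p = 0.374). In both genes all VE arrays were below all wild-type arrays. Dnah5 had 6.15, 6.47 and 6.52 in VE, against 5.96, 5.39 and 6.24 in wild type, with overlap (0.52, SE 0.235, limma adjusted p = 0.402).

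Values did not overlap between VE and wild type for 9 members (16.4%), against 16.8% of all probe sets. The 5 higher ones (5.34% of all) were Cfap100, Cfap157, Cfap97d1, Dnaaf3 and Dnah7a, and the 4 lower ones (11.5% of all) Cfap126, Cfap410, Rsph4a and Rsph9. The remaining members with small p were Rsph9 (-0.50), Cfap20 (-0.42), Cfap300 (-0.40), Cfap45 (-0.36) and Cfap57 (-0.33) below 0, and Cfap299 (0.69), Dnaaf6 (0.59), Cfap52 (0.59), Dnah8 (0.55), Cfap97d1 (0.42), Cfap97d2 (0.40) and Dnah7a (0.39) above 0. Without VE array 2 the differences from wild type were 0.29 for Cfap299, 0.31 for Dnaaf6, 0.16 for Dnah8, 0.26 for Cfap97d2, -0.33 for Cfap410 and -0.063 for Cfap300. Cfap52 was at 0.30 and Cfap20 at -0.14 without it, and all 8 were closer to 0 than with it. Other members moved away from 0 without VE array 2, among them Cfap69 (0.29 to 0.72), Cfap20dc (0.16 to 0.61) and Cfap36 (-0.11 to 0.40). The members' median over all arrays was 0.05 and that of all probe sets -0.07. Without VE array 2 the members' median was -0.03, and 0 members were called by limma, against 0.329% of all probe sets.

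No further gene of the axoneme was called. Of 60 measured axonemal genes outside the symbol rule, 0 were called by limma in ob/ob mice, against 1.27% of all probe sets. At unadjusted p under 0.05, 1 was higher (Pifo, 0.52), against 9.88% of all. At that level 3 were lower (Drc7, -0.64, Dynll1, -1.18, and Iqca, -0.79), against 10.2% of all. The median of the 60 was -0.08. Without VE array 2 the count called was 2, both lower, against 7.18% of all probe sets. The 60 include the dynein intermediate chain genes under their older names: Dnaic1 was at -0.31, Dnaic2 at -0.29, Wdr63 at 0.13 and Wdr78 at -0.23. Dynll1 is a light chain that cytoplasmic dynein and other proteins use in all cells. Among 13 regulators of the motile cilia programme, 0 were called (2 at unadjusted p under 0.05, against 20.1% of all probe sets). Gmnc, which starts the programme, was at -0.91 (limma adjusted p = 0.203), Rfx3 at -0.35 and Rfx2 at 0.11. Foxj1 was not named by the annotation used here.

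Some markers of the cells that carry these cilia were lower in ob/ob mice. Of 19 measured choroid plexus genes 4 fell in ob/ob mice by limma (Ecrg4, Folr1, Kl and Slc13a4), against 0.73% of all probe sets. The median of the 19 was -0.84. Slc13a4, a sulfate carrier, had 6.45, 6.04 and 5.83 in ob/ob vehicle, against 7.31, 6.95 and 7.23 in wild type, without overlap (-1.06, SE 0.216, limma adjusted p = 0.041). The array means of this list were 7.02 to 7.72 in ob/ob vehicle and 7.85 to 8.63 in wild type, without overlap. Of 18 measured ependymal genes 1 fell (Pltp, a lipid transfer protein that other cells also make), against the same 0.73%. The median of the 18 was -0.18. The ependymal array means were 6.24 to 6.48 in ob/ob vehicle and 6.55 to 6.69 in wild type, again without overlap, whereas the array means of the 55 members overlapped. Without VE array 2, 6 choroid plexus and 3 ependymal genes were called, all lower, against 7.18% of all probe sets called lower in that fit. The ependymal markers Ccdc153 (0.04), Tmem212 (-0.05) and Rarres2 (-0.28), were not called, and Rarres2 read 3.30 to 4.13 on all 9 arrays. Enkur, a sperm and ciliary protein, was at -0.93 (limma adjusted p = 0.127), and Tppp3, a tubulin-binding protein of ciliated cells, at -0.88 (limma adjusted p = 0.135). In the VE comparisons 0 genes of either list were called by limma. At unadjusted p under 0.05, VE against ob/ob vehicle had 1 choroid gene higher and 1 ependymal gene higher and 2 lower, against 13.3% of all probe sets in either direction. VE against wild type had 6 choroid and 3 ependymal genes, all lower, against 12.2% of all probe sets. The array means in VE were 7.41 to 7.75 for choroid plexus genes and 6.27 to 6.53 for ependymal genes.

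Lists of other brain cell types had medians below 0 in ob/ob vehicle against wild type as well. Limma called 3 of 12 astrocyte genes (Aqp4, Gfap and Sox9), 2 of 13 oligodendrocyte genes (Cldn11 and Fa2h) and 2 of 11 microglia genes (C1qb and Olfml3). All were lower, as were 0.73% of all probe sets. Limma called 0 of 13 neuron genes (6 at unadjusted p under 0.05, all lower) and 0 of 10 endothelial genes (0 at unadjusted p under 0.05). At that unadjusted level 10.2% of all probe sets were lower. The array means of the neuron, astrocyte, oligodendrocyte, microglia and endothelial lists did not overlap between ob/ob vehicle and wild type either. Their medians were -0.60 for neurons, -0.63 for astrocytes, -0.997 for oligodendrocytes, -0.61 for microglia and -0.34 for endothelium. After quantile normalization they were -0.25, -0.40, -0.88, -0.56 and -0.22 in the same order, and after cyclic loess -0.20, -0.39, -0.84, -0.57 and -0.18. The choroid plexus median of -0.84 became -0.72 and -0.67 under those scalings. The ependymal median of -0.18 moved away from 0, to -0.31 and -0.32. Bright probe sets as a whole, those above the olfactory receptor limit, had a median of -0.23, which was -0.038 after quantile normalization and -0.022 after cyclic loess. The 10 members among them had a median of -0.33, and -0.19 and -0.17 under those scalings. The part of this shift of bright probe sets in the values of Rsph9, Cfap20 and Cfap97 was not tested.

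Cfap126 did not rank the wild-type arrays as the choroid genes did. Wild-type array 1 had the highest Cfap126 value of the 9 arrays, 8.15, and the lowest choroid plexus mean of the 3 wild-type arrays, 7.85, with Ecrg4 at 8.21 there and at 9.91 and 9.45 on wild-type arrays 2 and 3. In ob/ob vehicle, array 1 was the highest for both, with 6.60 for Cfap126 and 7.72 for the choroid mean. How far the amount of choroid plexus or ependyma in each piece of tissue took part in the Cfap126 change was not tested.

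**Figure D4:**
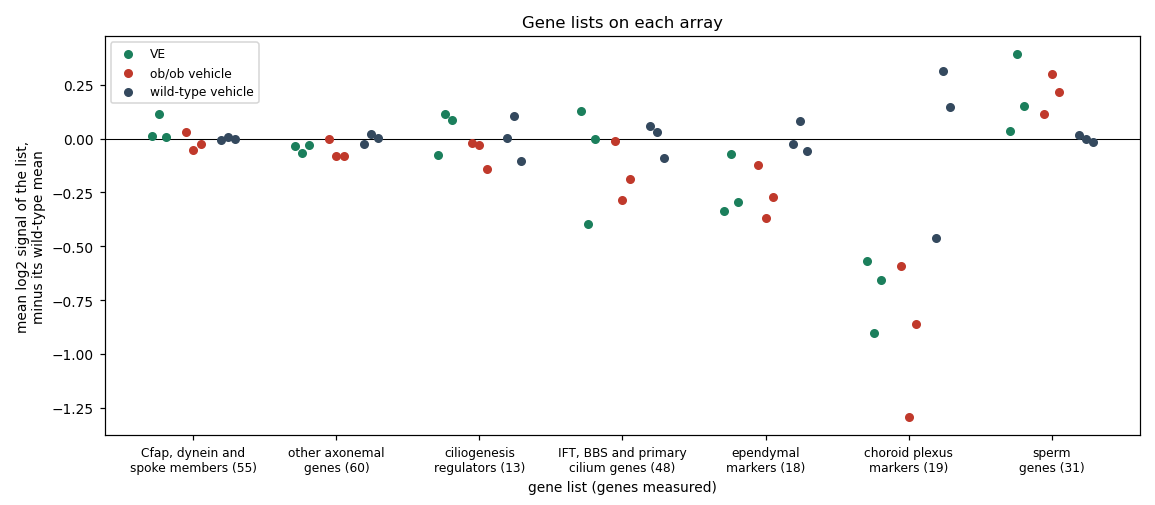
Mean log2 signal per array of the 55 motile cilia genes and of the marker lists, relative to the wild-type mean, VE left, ob/ob vehicle in the middle and wild type right. The choroid plexus list lies below the wild-type mean by 0.59 to 1.29 on the ob/ob vehicle arrays, and the 55 genes lie between -0.06 and 0.03 there.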

How the data were processed

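The deposited values were log2 signals that the authors normalized with SST-RMA (signal space transformation with robust multi-chip averaging) in Transcriptome Analysis Console 4.0.2, as the design text and the labels say. They were used without a further normalization. Group means over the 9 arrays were fitted with limma 3.58.1 in R 4.3.3, and the spread was moderated by empirical Bayes (residual degrees of freedom 6, prior 7.03). P-values were adjusted by Benjamini-Hochberg over 22206 probe sets and called at adjusted p under 0.05. Gene symbols came from the platform annotation, with the highest-mean probe set taken per gene. The members and the lists were chosen with earlier results of these data known. Genes named with values were those called, the 8 with the smallest p each way in each comparison, the brightest and dimmest of each family, and the best-known members. The detection filters of the design text were not used. Sequencing depth does not apply to arrays, and the 3 arrays a group limit the precision. The script was tested on simulated data. Alternatives were other normalizations, moderation, array weights, filters, call rules, samples in the fit, a replicate block and leaving out each array. RefSeq promoters (GRCm38.p6) were searched for 3 motifs. The array's own genome build is not given in the sources used here.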

Additional observations from a re-analysis of the deposited data

How the results depend on the processing

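In ob/ob vehicle against wild type, 1 member was called. With array weights 5 were called (16.2% of all probe sets), with the 2 groups alone 4 (11.8%) and under the authors' rule 5. The probe sets above the median level leave out Cfap126 and hold 15 members. Of these 15, 0 were called, against 3.67% of all probe sets above that level. Leaving out each array gave 0 to 4 members, and 0 to 2975 probe sets of all, against 281 with all arrays. In VE against ob/ob vehicle, 0 members were called, 7 with array weights (14.9% of all) and 1 under the authors' rule, and 0 to 0 when each array was left out (0 to 403 of all, against 108). In VE against wild type, 0 were called, 8 with array weights (14.8% of all) and 4 under the authors' rule, and 0 to 0 when each array was left out (0 to 158 of all, against 22). The weights gave VE array 2 0.145 and VE array 3 6.70, so calls with weights lean on VE array 3. The difference of Cfap221 between VE and ob/ob vehicle was -0.086 with array weights (limma adjusted p = 0.816). That of Rsph14 was -0.022 without VE array 2 (limma adjusted p = 0.969), its range over the arrays left out being -0.022 to 0.598. Both are positive with all arrays weighted alike, and the cause was not tested. Other members changed sign in this comparison without VE array 2 as well. Among them were Cfap44 (0.45 to -0.25), Dnah8 (0.08 to -0.305) and Cfap300 (-0.07 to 0.27). Cfap126 in ob/ob vehicle kept its direction in all 17 alternatives (-2.31 to -1.67, limma adjusted p = 0.000533 to 0.177) and its call in 12. Same-numbered arrays of 2 groups correlated at -0.0323 to 0.331 after group means were removed, over 0.1 in 4 of 9 pairs. Different-numbered arrays correlated at -0.289 to 0.111. The highest same-numbered values, 0.331 and 0.216, were both between VE and ob/ob vehicle. These values do not settle whether the numbers pair the arrays, and the main fit used no pairing. The replicate block gave 1, 0 and 0 members in the 3 comparisons (251, 144 and 2 probe sets of all). The small number of arrays and the dim signals of most members limit what can be detected.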

Other observations

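Genes of intraflagellar transport and of primary cilia, which nearly every cell carries, were also measured. Of 48 measured, 0 were called in ob/ob vehicle against wild type by limma, with a median of -0.15. At unadjusted p under 0.05, 3 of them were lower, against 10.2% of all probe sets. Adcy3, the adenylyl cyclase of neuronal primary cilia, was at -0.76 (SE 0.212, limma adjusted p = 0.0862). Of 31 sperm genes, 0 were called (4 at unadjusted p under 0.05, all higher, against 9.88% of all probe sets). Their median was 0.16, and 1 of the 31 lay above the olfactory receptor limit. The neighbours of Cfap126 on chromosome 1, Sdhc (-0.53), Pcp4l1 (-0.46) and Fcgr3 (-0.88), were not called in ob/ob vehicle by limma (adjusted p = 0.172, 0.384 and 0.0817).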
